A study of Mus musculus with 6 samples.

Results

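The genes described here are 31 mouse genes of the unfolded protein response and of ER-associated degradation, the stress response and the disposal route of the endoplasmic reticulum (ER). They were chosen by name and matched on the gene symbol in the deposited table of counts, which holds 54532 genes, and all 31 were found there. Of the 31, 30 passed a filter on low counts and were among the 12269 genes tested, and Derl3 did not. The set has 4 stress sensors and transcription factors, 11 chaperones and their cofactors, 4 protein disulfide isomerases, 10 genes of the degradation route and 2 genes of the protein-conducting channel.

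The series is bulk RNA-seq of BV2 cells, an immortalised mouse microglial line, in 6 libraries. One group of 3 libraries is labelled SMEK1 knockdown and the other group of 3 is labelled WT, and each group has libraries A, B and C. All 6 come from untreated culture in DMEM with fetal bovine serum and antibiotics. The series' design text names LV1 and NL as knockdown derivatives of BV2 cells, while the labels call the NL libraries WT, so whether the WT cells carry a control construct is not known here. The vector and the number of clones are not stated either. Nothing says that libraries sharing a label were grown as separate cultures, and p-values therefore measure the spread between these libraries, which may be technical. SMEK1 is the regulatory subunit of protein phosphatase 4 that the mouse annotation calls Ppp4r3a. Its level was 2.51, 5.42 and 4.25 CPM (the gene's count relative to the library's total count, which is scaled between libraries by the TMM method of edgeR) in knockdown libraries A, B and C. It was 18.1, 13.5 and 15.3 CPM in WT libraries A, B and C. By the fold change of edgeR's fit, the knockdown level was 26.1% of the WT level (edgeR's quasi-likelihood test, adjusted p = 8.22e-05).

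Proteins that enter the secretory pathway fold in the ER with the help of chaperones, sugar-binding lectins and disulfide isomerases. When unfolded proteins build up, 3 sensors in the ER membrane respond: IRE1 (gene Ern1) splices the mRNA of the transcription factor Xbp1, PERK (Eif2ak3) phosphorylates the translation factor eIF2 alpha, and ATF6 is cut in the Golgi to release a transcription factor. Xbp1 and Atf6 then raise the genes of chaperones and of the degradation machinery, which moves misfolded proteins out of the ER to the proteasome. Microglia are secretory and phagocytic cells that pass many receptors and cytokines through the ER.

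Active ATF6 and XBP1 are known to act through short DNA elements: the ER stress element (ERSE; CCAAT, then any 9 bases, then CCACG), ERSE-II (ATTGG, then any 1 base, then CCACG) and the unfolded protein response element (UPRE; TGACGTGG). These letters were searched on both strands in RefSeq promoters of build GRCm38.p6, from 250 bases before to 50 after the annotated start, and 27 of the 31 genes had a promoter in that table (Atf6, Manf, Derl1 and Hyou1 did not). ERSE was found in 9 of the 27 (33.3%), against 37 of all 27025 gene symbols with a promoter (0.137%). ERSE-II was found in 2 (7.41%), against 12 of all (0.0444%). UPRE was found in 0 of the 27, against 193 of all (0.714%). The shared core CCACG, which is part of ERSE and ERSE-II and is often present by itself, was found in 23 (85.2%), against 35.5% of all symbols. A match describes the letters only and shows no binding.

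The 12 ERSE and ERSE-II matches are shown because active ATF6 and XBP1 are known to act through elements of these letters. Whether these matches control their genes was not tested. The genes that carry the matches differed in how their mRNA compared between the groups. Each line is read 5′ to 3′ along the strand of the match, with 10 bases on each side, and capitals mark the fixed letters of the element.
Calr ERSE, chr8:84847065-84847103, plus strand: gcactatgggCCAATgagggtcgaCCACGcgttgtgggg
Canx ERSE, chr11:50325790-50325828, minus strand: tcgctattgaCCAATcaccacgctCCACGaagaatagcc
Creld2 ERSE, chr15:88819510-88819548, minus strand: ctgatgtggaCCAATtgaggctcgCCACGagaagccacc
Derl3 ERSE, chr10:75893232-75893270, minus strand: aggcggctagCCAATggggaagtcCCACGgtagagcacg
Dnajc3 ERSE, chr14:118937817-118937855, plus strand: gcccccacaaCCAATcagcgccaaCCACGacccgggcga
Hsp90b1 ERSE, chr10:86705523-86705561, plus strand: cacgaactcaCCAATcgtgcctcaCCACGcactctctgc
Hsp90b1 ERSE, chr10:86705628-86705666, minus strand: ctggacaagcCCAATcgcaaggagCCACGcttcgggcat
Hspa5 ERSE, chr2:34772015-34772053, plus strand: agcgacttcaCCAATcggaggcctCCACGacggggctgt
Pdia6 ERSE, chr12:17266481-17266519, plus strand: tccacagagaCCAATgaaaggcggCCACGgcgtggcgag
Syvn1 ERSE, chr19:6046522-6046560, plus strand: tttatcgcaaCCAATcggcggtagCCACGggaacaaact
Dnajb11 ERSE-II, chr16:22857842-22857872, plus strand: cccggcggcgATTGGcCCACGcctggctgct
Herpud1 ERSE-II, chr8:94386367-94386397, plus strand: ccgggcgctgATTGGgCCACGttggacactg

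Hsp90b1 had 2 ERSE matches in opposite orientations, and each of the other 10 genes had 1 match. Of the 9 ERSE genes, Calr, Hsp90b1 and Dnajc3 were called lower in the knockdown libraries, Hspa5, Canx, Creld2, Pdia6 and Syvn1 were not called, and Derl3 was not tested. Of the ERSE-II genes, Herpud1 was called lower and Dnajb11 was not called. Among genes with a promoter in the table, an ERSE or ERSE-II match was therefore present in 4 of the 11 called lower and in 6 of the 15 not called. The same element thus stood in promoters of genes with lower mRNA and of genes whose mRNA did not pass the test.

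**Figure D1:**
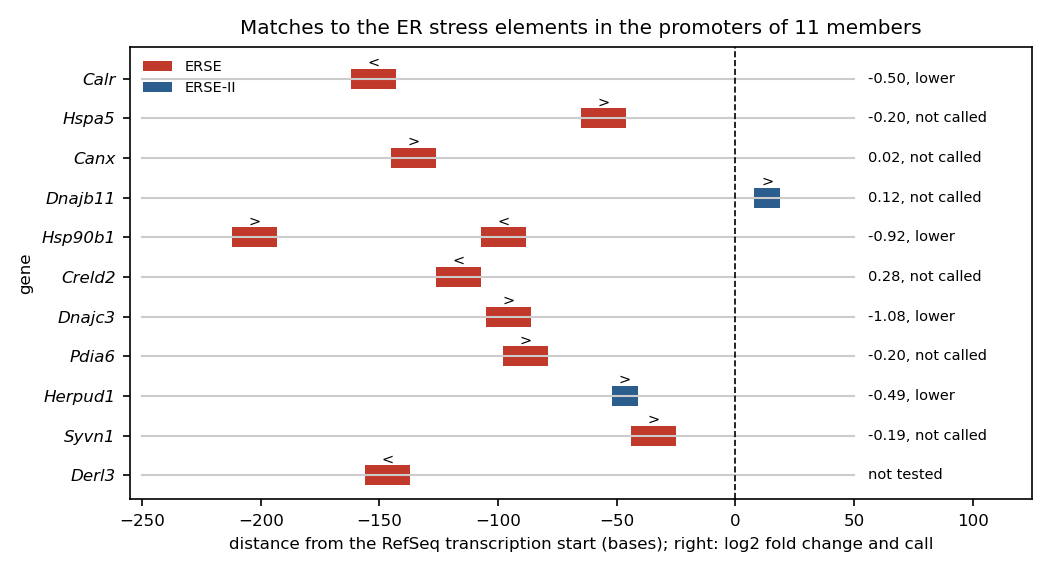
Position of the ERSE (red) and ERSE-II (blue) matches in the promoters of 11 genes. The x axis is the distance in bases from the RefSeq start, arrowheads give the strand of the match relative to the gene, and the text at the right gives the log2 fold change of the gene (knockdown over WT) and its call. All matches but that of Dnajb11, which begins 8 bases after the start, lie before the start.

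The 250 bases before the start are shown for 3 genes that differ from one another in the element, the call or both. Dnajc3 had an ERSE and a lower mRNA level, and Canx had an ERSE and a level that was not called. Xbp1 had the lowest fold change of the set and no match to any of these letters in its window. Capitals mark ERSE and every CCACG on either strand, which reads CGTGG on the opposite strand.
Dnajc3, chr14:118937682-118937931, plus strand: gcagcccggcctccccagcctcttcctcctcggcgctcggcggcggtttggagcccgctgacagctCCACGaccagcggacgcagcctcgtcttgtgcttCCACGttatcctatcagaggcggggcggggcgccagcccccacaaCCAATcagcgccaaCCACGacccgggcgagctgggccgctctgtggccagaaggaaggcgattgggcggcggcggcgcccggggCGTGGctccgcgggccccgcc
Canx, chr11:50325674-50325923, minus strand: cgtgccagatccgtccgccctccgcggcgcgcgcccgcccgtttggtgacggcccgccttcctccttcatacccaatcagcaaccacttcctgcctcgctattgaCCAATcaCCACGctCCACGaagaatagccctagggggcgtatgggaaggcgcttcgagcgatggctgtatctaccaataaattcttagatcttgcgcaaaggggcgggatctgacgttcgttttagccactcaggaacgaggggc
Xbp1, chr11:5520391-5520640, plus strand: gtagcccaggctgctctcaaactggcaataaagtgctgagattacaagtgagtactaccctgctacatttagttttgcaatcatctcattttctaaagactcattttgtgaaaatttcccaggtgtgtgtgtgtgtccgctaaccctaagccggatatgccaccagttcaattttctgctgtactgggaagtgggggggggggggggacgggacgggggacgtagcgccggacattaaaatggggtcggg

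The window of Dnajc3 held CCACG at 3 further places beside its ERSE, and that of Canx at 1 further place, inside the 9 spacer bases of its ERSE.

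Across the set, mRNA was lower in the knockdown libraries for 14 of the 30 genes tested and higher for 1, Atf6. The genes called lower include the transcription factor Xbp1, the sensor Eif2ak3, the chaperones Dnajc3, Hsp90b1, Sdf2l1, Calr, Hyou1 and Manf, the disulfide isomerase P4hb, the degradation genes Derl1, Herpud1 and Edem1, and both channel genes, Sec61b and Ssr1. A gene was called at an adjusted p under 0.05 (edgeR's quasi-likelihood test, Benjamini-Hochberg adjustment over all genes tested). The share of the 30 called lower was 46.7%, against 19.6% of all genes tested, and the share called higher was 3.33%, against 20.5%. In either direction 15 of 30 (50%) were called, against 40.1% of all genes. The median log2 fold change of the 30 was -0.21, beside 0.01 over all genes tested, and 22 of 30 (73.3%) had a value below 0, beside 49.0% of all. The CPM ranges of the groups did not overlap for 13 of the 30 (43.3%), a share under the 50.9% of all genes tested. When libraries were scaled by their total counts alone, the median of all genes rose by 0.16 and the calls over all genes became 3893 higher and 1568 lower, in place of 2515 and 2403. The calls in this set then became 3 higher (Atf6, Creld2 and Dnajb11) and 12 lower, and the median of the 30 was -0.05, beside 0.17 for all genes.

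**Figure D2:**
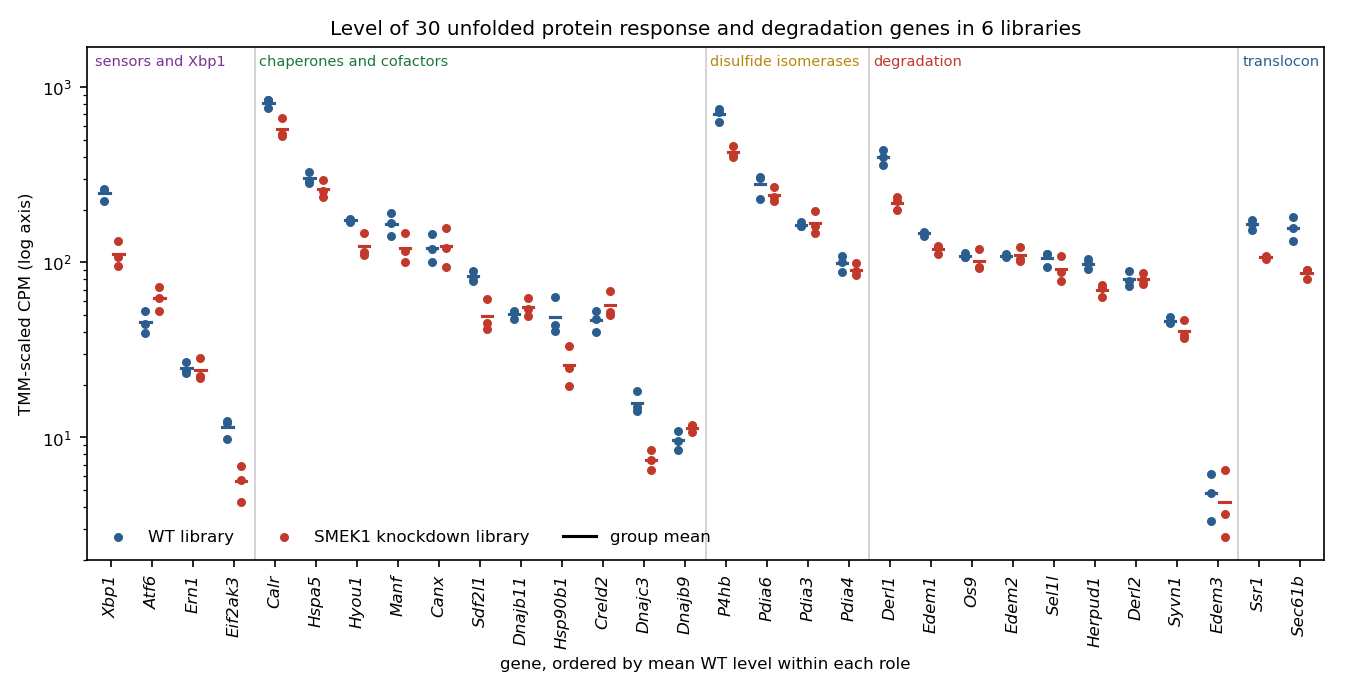
TMM-scaled CPM (log axis) of the 30 tested genes in each WT (blue) and knockdown (red) library, with bars at the group means, n = 3 libraries a group, ordered within each role by the WT mean. The 3 knockdown libraries lie below all WT libraries for Xbp1, Eif2ak3, Dnajc3, P4hb, Derl1, Sec61b and Ssr1, among others, and the groups overlap for Hspa5, Canx, Pdia3 and Derl2.

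By authors' FPKM, which are per gene length and so allow levels of different genes to be set side by side, the set spanned a wide range in WT cells. Calr was highest at 283 ± 16.9 FPKM (SD, n = 3), followed by P4hb at 245 ± 20.1. Sec61b at 123 ± 19.2 and Derl1 at 119.7 ± 11.5 came next and lay within their spread of each other. Xbp1 at 76.2 ± 6.44, Sdf2l1 at 75.2 ± 5.11, Pdia6 at 74.8 ± 11.8 and Hspa5 at 71.1 ± 5.78 also did not differ beyond their spread. The lowest were Ern1 at 3.03 ± 0.235, Eif2ak3 at 1.90 ± 0.244, Edem3 at 0.749 ± 0.225 and Derl3 at 0.0671 ± 0.0744. The abundant end of the set thus held folding enzymes, a channel subunit and a derlin, and the sensor kinases were near the bottom. Calr, P4hb, Sec61b and Derl1 kept places 1 to 4 in the knockdown cells, while Xbp1 moved from place 5 to place 12, at 34.1 ± 6.17 FPKM.

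The sum of CPM over all 31 genes was 3824, 3514 and 3406 in knockdown libraries A, B and C. In WT libraries A, B and C it was 4589, 5011 and 4914. The groups did not overlap, with means of 3581 ± 217 and 4838 ± 221 CPM (SD, n = 3 each). The sum is carried by the most abundant genes, Calr and P4hb first. The samples are bulk RNA of a cell line. Fewer cells with high levels of these genes and lower levels in every cell therefore cannot be told apart.

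Among the sensors and Xbp1, the 4 genes went 3 ways. Xbp1, which encodes the transcription factor made from the mRNA that IRE1 splices, lies at chr11:5520659-5525893 on the plus strand (ENSMUSG00000020484, GRCm38). Its level was 132, 95.6 and 107 CPM in knockdown libraries A, B and C. The WT libraries, in the same order, had 224, 262 and 259 CPM. Every knockdown library was below every WT library, the knockdown mean was 44.9% of the WT mean, and the log2 fold change was -1.15 (standard error 0.12, adjusted p = 1.52e-05, edgeR). Counts per gene do not separate the spliced from the unspliced mRNA, so the share of spliced Xbp1 was not analysed here.

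Eif2ak3, the kinase PERK (chr6:70844515-70905245), was at 5.75, 6.89 and 4.29 CPM in the knockdown libraries and at 12.1, 9.79 and 12.5 CPM in the WT libraries. The groups did not overlap, and the log2 fold change was -1.02 (standard error 0.20, adjusted p = 0.0017, edgeR). Ern1, the kinase and nuclease IRE1 (chr11:106394650-106487852), was at 22.3, 28.6 and 21.8 CPM in the knockdown libraries and at 27.0, 24.1 and 23.5 CPM in the WT libraries. Its groups overlapped, with a log2 fold change of -0.04 (standard error 0.13, adjusted p = 0.846, edgeR), and the value became 0.12 with total-count scaling. Atf6, the membrane-bound transcription factor (chr1:170704674-170867771), was at 52.5, 72.7 and 62.6 CPM in the knockdown libraries and at 52.7, 39.4 and 44.3 CPM in the WT libraries. It was called higher, with a log2 fold change of 0.46 (standard error 0.13, adjusted p = 0.0155, edgeR), although WT library A was level with knockdown library A. Its call was lost without WT library B (adjusted p = 0.0558) and without WT library C (adjusted p = 0.0606). Thus mRNA of PERK and of Xbp1 was lower, that of IRE1 did not pass the test, and that of ATF6 was higher by a call that 1 library could end.

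**Figure D3:**
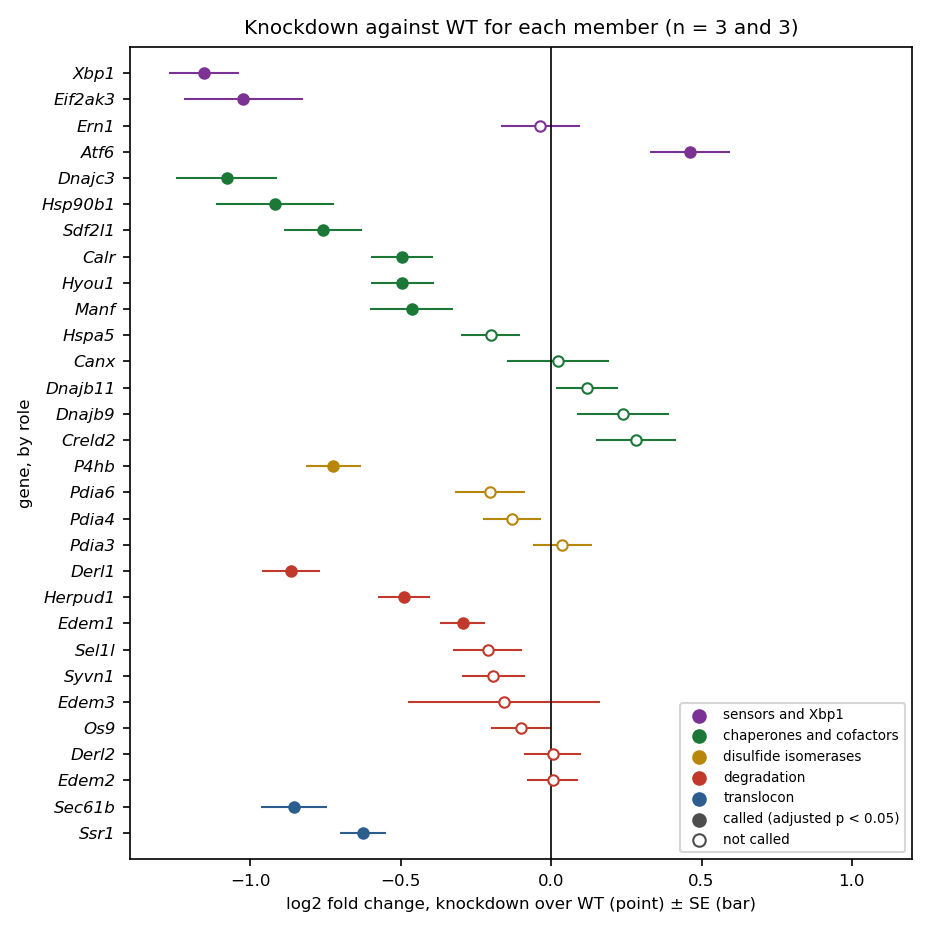
Log2 fold change (knockdown over WT) of the 30 tested genes with its standard error, grouped by role and sorted by value, n = 3 libraries a group. Filled points were called at adjusted p under 0.05 and open points were not. Xbp1, Dnajc3 and Eif2ak3 lie below -1, and Atf6 is the one filled point above 0.

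Among the 11 chaperones and cofactors, 6 were called lower (54.5%, beside 19.6% of all genes tested) and 0 higher (beside 20.5% of all), and the median log2 fold change was -0.46. Dnajc3, the cofactor p58IPK of the Hsp70 chaperone BiP (chr14:118937976-118981697), was at 6.48, 8.49 and 7.45 CPM in the knockdown libraries and at 18.4, 14.2 and 14.8 CPM in the WT libraries. Its log2 fold change was -1.08 (standard error 0.17, adjusted p = 3.49e-04, edgeR), and the groups did not overlap. Hsp90b1, the ER form of Hsp90 known as GRP94 (chr10:86690209-86705509), was at 19.8, 33.2 and 24.8 CPM in the knockdown libraries and at 63.2, 40.3 and 43.7 CPM in the WT libraries. Its log2 fold change was -0.92 (standard error 0.20, adjusted p = 0.00293, edgeR) and became -0.53 (adjusted p = 0.00939) without both A libraries. Sdf2l1, a partner of ER DnaJ proteins (chr16:17130138-17132383), was at 61.6, 41.6 and 45.2 CPM in the knockdown libraries and at 82.4, 89.8 and 78.5 CPM in the WT libraries, a log2 fold change of -0.76 (standard error 0.13, adjusted p = 7.14e-04, edgeR). For these 3 genes the highest knockdown library stayed under the lowest WT library.

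The abundant lectin chaperone Calr (calreticulin, chr8:84841850-84846934) was at 671, 540.5 and 528 CPM in the knockdown libraries and at 759.5, 850.0 and 843 CPM in the WT libraries, a log2 fold change of -0.50 (standard error 0.10, adjusted p = 0.00253, edgeR). Canx (calnexin, chr11:50293961-50325673), the membrane-bound lectin of the same cycle, was at 93.6, 157 and 121 CPM in the knockdown libraries and at 145, 100.1 and 119.7 CPM in the WT libraries. The Canx ranges overlapped almost fully, with a log2 fold change of 0.02 (standard error 0.17, adjusted p = 0.926, edgeR), a value that turned to -0.16 without knockdown library B and to 0.33 without both A libraries (adjusted p = 0.0495). The difference between the changes of Calr and Canx was not tested. Hyou1, the nucleotide exchange factor GRP170 of BiP (chr9:44379490-44392369), was at 147, 110.0 and 114 CPM in the knockdown libraries and at 174, 171 and 177 CPM in the WT libraries, a log2 fold change of -0.50 (standard error 0.10, adjusted p = 0.00284, edgeR). Manf, a secreted stress-induced ER protein (chr9:106838312-106891979), was at 147, 100.4 and 115 CPM in the knockdown libraries and at 141, 190.4 and 169 CPM in the WT libraries. Its groups overlapped through the A libraries, its log2 fold change was -0.46 (standard error 0.14, adjusted p = 0.0189, edgeR), and the call was lost when any 1 of knockdown library B or C or WT library B or C was left out (adjusted p from 0.0506 to 0.0764). Without both A libraries its log2 fold change was -0.74 (adjusted p = 1.27e-04).

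Hspa5, which encodes BiP, the main Hsp70 of the ER and the protein that holds the sensors inactive (chr2:34771970-34777547), was at 256, 296 and 236 CPM in the knockdown libraries. It was at 329, 286 and 290.0 CPM in the WT libraries, so knockdown library B lay within the WT range. The log2 fold change was -0.20 (standard error 0.10, adjusted p = 0.125, edgeR), and without knockdown library B it was -0.27 with an adjusted p of 0.0348. The other chaperone genes not called had values above 0. Creld2, a secreted stress-induced ER protein, had a log2 fold change of 0.28 (standard error 0.13, adjusted p = 0.113, edgeR), Dnajb9 (ERdj4) of 0.24 (standard error 0.15, adjusted p = 0.235) and Dnajb11 (ERdj3) of 0.12 (standard error 0.10, adjusted p = 0.381). The Creld2 value depended on single libraries: it was 0.36 without knockdown library B (adjusted p = 0.0448), 0.14 without knockdown library A (adjusted p = 0.346), 0.18 without WT library A (adjusted p = 0.320) and 0.03 without both A libraries (adjusted p = 0.832). Genes that Xbp1 and Atf6 are known to raise thus stood on both sides of the threshold, and the gene of BiP was among those not called.

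Among the 4 disulfide isomerases, P4hb alone was called (25%, beside 40.1% of all genes tested). P4hb, which encodes the archetypal isomerase PDI and the beta subunit of prolyl 4-hydroxylase (chr11:120560298-120573253), was at 462, 402 and 413 CPM in the knockdown libraries and at 637, 749 and 725 CPM in the WT libraries. The groups were far apart for their spread, with a log2 fold change of -0.72 (standard error 0.09, adjusted p = 8.88e-05, edgeR). Pdia3 (ERp57, the partner of calreticulin and calnexin) had a log2 fold change of 0.04 (standard error 0.10, adjusted p = 0.787), Pdia4 (ERp72) of -0.13 (standard error 0.10, adjusted p = 0.297) and Pdia6 of -0.20 (standard error 0.12, adjusted p = 0.183). The Pdia6 value rested on WT library A, at 229 CPM against 309 and 304 CPM in WT libraries B and C, and without that library it was -0.33 with an adjusted p of 0.0139.

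Among the 9 tested genes of the degradation route, 3 were called lower (33.3%) and 0 higher, with a median log2 fold change of -0.19. Over all genes tested 19.6% were called lower and 40.1% in either direction. In these 9 genes the share called lower was thus above that of all genes, and the share called in either direction was under it. Derl1, a derlin of the channel through which misfolded proteins leave the ER (chr15:57869502-57892448), was at 236, 198 and 224 CPM in the knockdown libraries and at 359.9, 438 and 401 CPM in the WT libraries. Its log2 fold change was -0.87 (standard error 0.10, adjusted p = 3.41e-05, edgeR). Its relative Derl2 was at 87.4, 75.2 and 79.4 CPM in the knockdown libraries and at 73.0, 89.3 and 78.8 CPM in the WT libraries, with a log2 fold change of 0.01 (standard error 0.09, adjusted p = 0.968, edgeR). Derl3 had 2, 3 and 1 counts in the knockdown libraries and 2, 0 and 5 in the WT libraries, too few to test. Of the derlin family, Derl1 was thus lower by a margin beyond the spread, Derl2 overlapped fully and Derl3 was barely detected.

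Herpud1 (HERP, a membrane protein of the degradation complex, chr8:94386438-94395377) was at 74.6, 63.8 and 71.5 CPM in the knockdown libraries and at 91.3, 105 and 98.6 CPM in the WT libraries, a log2 fold change of -0.49 (standard error 0.09, adjusted p = 9.49e-04, edgeR). Edem1, a lectin-like protein of mannose trimming (chr6:108828641-108859356), was at 124, 122 and 112 CPM in the knockdown libraries and at 148, 142 and 149 CPM in the WT libraries. Its log2 fold change of -0.29 (standard error 0.08, adjusted p = 0.0086, edgeR) became -0.14 with total-count scaling (adjusted p = 0.154), and its call was lost without knockdown library C (adjusted p = 0.0694). Edem2 had a log2 fold change of 0.01 (standard error 0.08, adjusted p = 0.963) and Edem3 of -0.16 (standard error 0.32, adjusted p = 0.723). Edem3 had the largest standard error of the 30 tested members of the set, with levels from 2.72 to 6.49 CPM in the knockdown libraries and from 3.34 to 6.21 CPM in the WT libraries. The core ligase genes Syvn1 (HRD1, the ubiquitin ligase) and Sel1l (its adaptor) had log2 fold changes of -0.19 (standard error 0.11, adjusted p = 0.165) and -0.21 (standard error 0.12, adjusted p = 0.168), and Os9, a lectin of the same complex, of -0.10 (standard error 0.10, adjusted p = 0.456). Each of the last 3 passed the threshold with 1 library left out: Sel1l without knockdown library B (-0.33, adjusted p = 0.0217), Syvn1 without knockdown library A (-0.29, adjusted p = 0.0279) and Os9 without knockdown library A (-0.22, adjusted p = 0.0301). Among the degradation genes the calls of Derl1 and Herpud1 held with any 1 library left out, and whether Edem1, Sel1l, Syvn1 and Os9 were called depended on 1 library.

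Both channel genes were called lower (2 of 2, beside 19.6% of all genes tested). Sec61b, the beta subunit of the Sec61 channel (chr4:47474658-47483242), was at 90.5, 79.9 and 90.1 CPM in the knockdown libraries and at 133, 182 and 156 CPM in the WT libraries, a log2 fold change of -0.85 (standard error 0.11, adjusted p = 9.99e-05, edgeR). Ssr1, the alpha subunit of the translocon-associated protein complex (chr13:37966605-37994217), was at 107, 108 and 105 CPM in the knockdown libraries and at 154, 175 and 166 CPM in the WT libraries, a log2 fold change of -0.63 (standard error 0.08, adjusted p = 7.00e-05, edgeR). For both genes every knockdown library was below every WT library.

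Other genes of the pathway were counted in 4 lists that hold none of the 31. In the signalling list 9 of 18 tested genes were called higher (50%, beside 20.5% of all genes tested) and 2 lower (11.1%, beside 19.6%), with a median log2 fold change of 0.17. The 9 became 6 without knockdown library C and 5 without WT library C. Genes called higher over all genes tested also fell, from 2515 to 1921 and 1869 in those fits. Among genes known to act downstream of PERK, Atf4, Ddit3, Ppp1r15a and Trib3 were all called higher. They were to be named whatever their values here, but the lists were chosen with earlier results of these data known. Their shared direction is therefore not independent of the choice. Ppp1r15b (0.14, adjusted p = 0.145, edgeR) and Nfe2l2 (0.05, adjusted p = 0.718, edgeR), named after their values were seen, were not called. Ddit3 (CHOP) was at 139, 128 and 147 CPM in the knockdown libraries and at 42.9, 49.5 and 40.5 CPM in the WT libraries, a log2 fold change of 1.64 (standard error 0.09, adjusted p = 2.17e-07, edgeR). The pseudokinase gene Trib3 rose from 264 ± 12.5 to 471 ± 13.1 CPM (SD, n = 3, adjusted p = 7.87e-06, edgeR). The transcription factor gene Atf4 rose from 896 ± 89.0 to 1122 ± 67.9 CPM (adjusted p = 0.0166, edgeR). Ppp1r15a (GADD34, the phosphatase subunit that reverses eIF2 alpha phosphorylation) rose from 59.2 ± 3.88 to 94.8 ± 10.0 CPM (adjusted p = 1.64e-04, edgeR). Ddit3 and Trib3 mRNA was thus higher in the same libraries in which mRNA of PERK and Xbp1 was lower. The 2 genes called lower were Atf6b, a relative of Atf6, with a log2 fold change of -0.36 (adjusted p = 0.00375, edgeR), and Zbtb8os, which encodes archease, a cofactor of the tRNA ligase that joins Xbp1 exons, with -0.44 (adjusted p = 0.0392).

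Over all genes tested 20.5% were called higher and 19.6% lower. In the folding list 8 of 31 tested genes were called higher and 8 lower (25.8% each way), with a median of -0.06. Erp29, an ER protein of the thioredoxin fold, rose from 493 ± 20.7 to 887 ± 36.1 CPM, and Mesd, a chaperone of LDL receptor relatives, from 26.9 ± 2.72 to 53.5 ± 3.27 CPM. The glucosidase genes Ganab and Mogs, which trim the sugars that calreticulin and calnexin read, fell to 57.4% and 61.4% of the WT mean. In the degradation list 9 of 35 were called higher (25.7%) and 10 lower (28.6%), with a median of 0.12. Man1b1, a mannosidase of glycoprotein disposal, fell from 176 ± 10.6 to 55.6 ± 3.68 CPM (log2 fold change -1.66, adjusted p = 7.99e-08, edgeR), and Ubac2, on chromosome 14, fell to 43.0% of the WT mean. Rhbdd1, a rhomboid protease, and Ufd1, a cofactor of the segregase p97, rose by log2 fold changes of 0.64 and 0.59. In the list of channel, targeting and glycosylation genes 5 of 35 were called higher (14.3%) and 9 lower (25.7%), with a median of -0.09, and these became 2 and 5 without knockdown library C and without WT library C. Over all genes tested, 1921 were then called higher and 1782 lower without knockdown library C, and 1869 and 1838 without WT library C, in place of 2515 and 2403. Ssr4, the delta subunit beside Ssr1, fell to 51.1% and Dad1 of the oligosaccharyltransferase to 57.8% of the WT mean, while Tusc3 and Sec11a rose by log2 fold changes of 0.73 and 0.48. The 4 lists thus held calls in both directions. The signalling list alone had a share called lower (11.1%) under the 19.6% of all genes. The list of channel, targeting and glycosylation genes alone had a share called higher (14.3%) under the 20.5% of all genes.

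**Figure D4:**
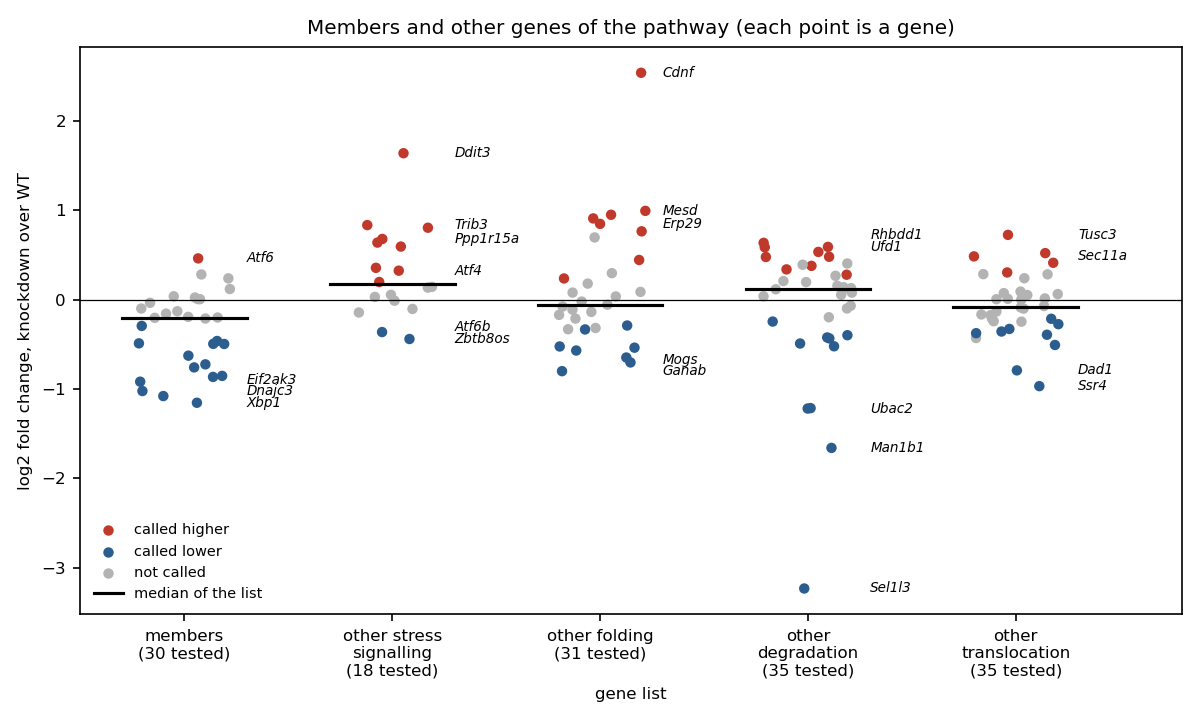
Log2 fold change (knockdown over WT) of each tested gene in the set of 30 and in 4 lists of other genes of the pathway, coloured by call, with a bar at each list's median. The medians are -0.21 for the 30 genes and 0.17, -0.06, 0.12 and -0.09 for the other lists from left to right. Cdnf (2.54) and Sel1l3 (-3.23), the extreme points, were labelled after their values were seen and rest on at most 37 counts a library.

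The median log2 fold change of all tested genes within 5 Mb on the same chromosome was taken for each of the 31 genes. It was -0.52 over 22 genes around Dnajc3 on chromosome 14 and -0.48 over 28 genes around Derl1, both on the side of the gene's own value. It was 0.39 over 95 genes around Sdf2l1 and 0.39 over 65 genes around Dnajb11, both on chromosome 16, and 0.36 over 110 genes around Edem2. Sdf2l1 was thus lower among neighbours that were mostly higher. Around Xbp1, Eif2ak3, P4hb, Sec61b, Ssr1 and Hsp90b1 the medians were 0.04, 0.05, 0.04, 0.04, 0.08 and 0.02. The part of the neighbourhood in the values of Dnajc3 and Derl1 was not tested.

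Replicate libraries differed from each other in a pattern that many of the 31 genes shared. For 10 of the 30 tested genes (Atf6, Ern1, Eif2ak3, Hspa5, Hsp90b1, Canx, Dnajc3, Pdia3, Sel1l and Edem3) the level was higher in knockdown library B than in A and higher in WT library A than in B. For 15 genes both relations were the other way round, among them Xbp1, Calr, P4hb, Sdf2l1 and Manf. Over all genes tested, deviations from the group means correlated at -0.361 between the A libraries and -0.326 between the B libraries. Opposite deviations of libraries with the same letter were thus not particular to this set. Like the 10 genes, the share of counts from mitochondrial genes was higher in knockdown library B than in A and in WT library A than in B. The place of the C libraries varied among the 10 genes. The mitochondrial share was 0.485%, 0.784% and 0.706% in knockdown libraries A, B and C. For the WT libraries it was 0.840%, 0.629% and 0.699%. Its part in the results was not tested. With both A libraries left out, an alternative chosen after seeing the data, 18 of the 30 were called lower and 2 higher (Atf6 and Canx), and the genes added on the lower side were Os9, Pdia4, Pdia6 and Syvn1. Over all 12423 genes tested in that fit, 2597 were called lower and 2526 higher.

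**Figure D5:**
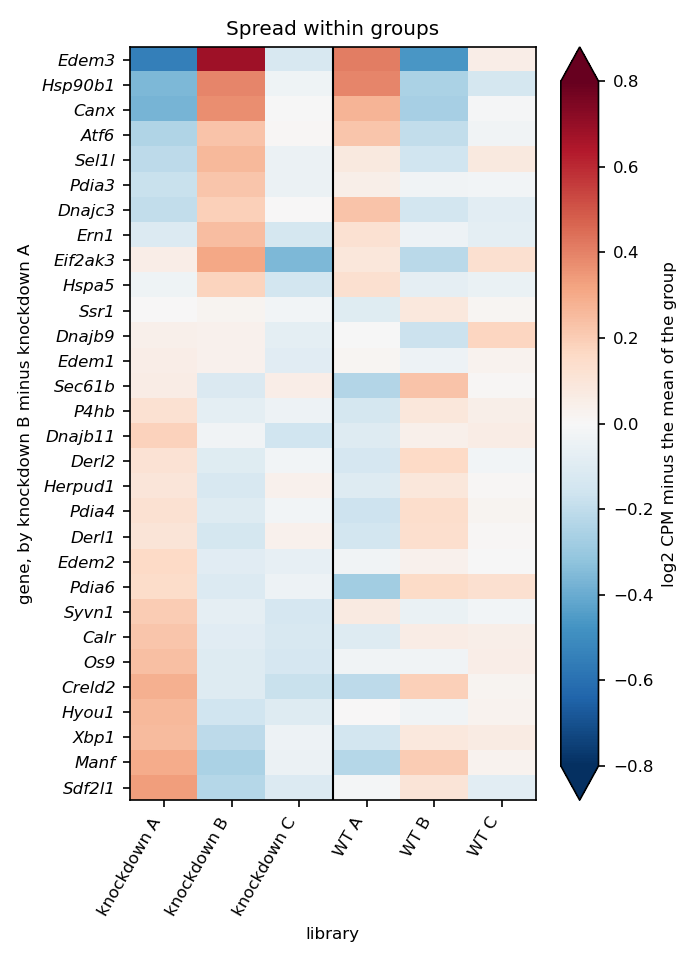
Heat map of each tested gene's log2 CPM minus the mean of its own group, in the 6 libraries, with genes sorted by the difference between knockdown libraries B and A. Red is above and blue below the group mean. Genes at the top, from Edem3 to Hspa5, are above the mean in knockdown library B and WT library A, and many of those at the bottom, such as Xbp1, Manf and Sdf2l1, are above it in knockdown library A.

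Depth ranged from 18627425 to 21131557 counts for knockdown libraries and from 18036591 to 18708438 for WT libraries, so 1 count was worth 0.0444 to 0.0597 CPM. All 12 microglial markers had a count in at least 1 library, and their summed level was 3101 to 3393 CPM in the knockdown and 3406 to 3783 CPM in the WT libraries, but P2ry12 and Cx3cr1, which define resting microglia in the brain, averaged under 1 CPM in both groups. Of 5 astrocyte markers 3 were at 0 in every library (Aqp4, Aldh1l1 and Gja1), with sums of 0.226 to 0.533 and 0.118 to 0.477 CPM. Of 5 neuronal markers 3 were at 0 (Snap25, Syt1 and Map2), with sums of 0.800 to 1.81 and 0.418 to 0.706 CPM. Of 5 oligodendrocyte markers 2 were at 0 (Mog and Olig2), with sums of 7.15 to 7.26 and 2.53 to 2.81 CPM that came mostly from Mbp, and the part of such transcripts in the results was not tested. Of 4 endothelial markers 2 were at 0 (Cldn5 and Cdh5) and of 4 fibroblast markers 2 (Col1a2 and Dcn), with sums under 1 CPM. Whether reads were counted by strand is not stated, and other genes share exonic bases with some of the 31 in GENCODE M21: 15.7% of the exonic bases of Hsp90b1, 9.25% of Manf, 8.05% of Eif2ak3 and at most 2.87% of any other. Reads of these genes and of their overlapping neighbours cannot be told apart there.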

How the data were processed

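mRNA-seq libraries of BV2 cells, 3 SMEK1 knockdown and 3 WT, were analysed from the whole-number counts per gene that the authors deposited, with the gene lengths in the same table. The authors also deposited FPKM values, used here for levels and as an alternative. Per the submitters' processing notes the build was GRCm38 (mm10), and no source used here names the aligner, the counting program or its use of strand. Columns were matched to samples by the titles, and 0 columns of values were left unmapped.

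The test was that of edgeR 4.0.16 under R 4.3.3 (TMM scaling, filterByExpr, quasi-likelihood test, no covariates), with Benjamini-Hochberg adjustment over 12269 genes. Alternatives were other scalings, other filters on low counts, DESeq2 1.42.0, limma 3.58.1 (voom, and log2 of FPKM plus 1 or 0.1 with a mean FPKM of at least 0.5), a replicate block, an adjusted p under 0.01 and leaving out each library. The test was also run on simulated counts in which few genes were changed, which does not check TMM scaling under changes as wide as those here. Levels are TMM-scaled CPM and SE is that of the log2 fold change. Depth was 18036591 to 21131557 counts a library, and the number of libraries limits the precision.

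The members and lists were chosen with earlier results of these data known. All 31 members were named, Ppp4r3a, of each further list the 2 called genes with the smallest adjusted p in each direction, and Atf4, Ddit3, Ppp1r15a and Trib3. Of the 37 genes of the further degradation list 36 were matched by symbol. Ddit3 has 2 rows of that symbol, and the one with more counts was used. Promoter sequences are from RefSeq (GRCm38.p6). A description of ER retention signals in the proteins was planned and is not analysed here.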

Additional observations from a re-analysis of the deposited data

How the results depend on the processing

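Of the 15 members called, 12 kept their call and direction under all 17 alternatives, and Atf6, Edem1 and Manf did not, with 12 of 255 values no longer past the threshold. Of the 15 not called, 14 of 255 values passed the threshold and 32 changed sign; the cause was not tested. Members called lower numbered 12 to 18. Members called higher numbered 3 with library totals, 2 with at least 1 count in any library, 0 with the replicate block, 0 at an adjusted p under 0.01, 0 to 2 with 1 library left out and 2 without both A libraries. With the replicate block Atf6 (adjusted p = 0.0647), Manf (0.0706) and Edem1 (0.054) lost their calls, 12 members were called lower, and over all genes 1678 were higher and 1648 lower. The deviations of libraries with the same letter correlated at -0.361 (A), -0.326 (B) and 0.00247 (C). Deviations within a group of 3 depend on one another, so these values cannot decide whether libraries of a letter share a batch.

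Over all genes tested, library totals gave 3893 higher and 1568 lower, and an adjusted p under 0.01 gave 1582 and 1599. Leaving out knockdown library C gave 1921 and 1782, and leaving out WT library C gave 1869 and 1838. Leaving out both A libraries gave 2526 and 2597. In the signalling list the block and an adjusted p under 0.01 each gave 5 higher and 1 lower, library totals, upper quartile and both FPKM fits gave 1 lower, and leaving out 1 library gave 5 to 8 higher and 1 to 2 lower. In the degradation list library totals gave 14 higher and 6 lower, and the block and the stricter p each gave 6 lower. In the translocation list library totals gave 11 higher and 4 lower, at least 1 count in any library gave 8 higher, the block and the stricter p each gave 2 higher and 4 lower, and leaving out 1 library gave 2 to 7 higher and 5 to 10 lower; the 2 higher and 5 lower came without knockdown library C and without WT library C.

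Changes of sign were confined to members not called. With library totals Edem3 became 0.0023, Ern1 0.12, Os9 0.056 and Pdia4 0.030. On log2(FPKM + 1) and log2(FPKM + 0.1) Canx was -0.0017 and -0.0022, Derl2 -0.0020 and -0.0021, and Edem2 -0.0076 and -0.0080. With DESeq2 size factors and with DESeq2 Derl2 was -0.0022 and -0.0022 and Edem2 -0.0017 and -0.0018. Without both A libraries Derl2 was -0.12, Dnajb11 -0.030, Edem2 -0.095, Edem3 0.31 and Ern1 0.082. With 1 library left out Canx ranged from -0.16 to 0.19, Derl2 from -0.063 to 0.085, Edem2 from -0.071 to 0.076, Edem3 from -0.57 to 0.079, Ern1 from -0.15 to 0.039 and Pdia3 from -0.060 to 0.13. The value of Eif2ak3 was -0.59 on log2(FPKM + 1), a scale that understates changes of low genes.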
